A study of Mus musculus with 9 samples.

Results

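The receptors for interleukin-12 (IL-12) and interleukin-18 (IL-18), and the first signalling proteins below them, were followed as 9 genes of the 14004 in the table. They were the IL-18 receptor chains Il18r1 and Il18rap, the IL-12 receptor chains Il12rb1 and Il12rb2, the kinases Tyk2 and Jak2, the transcription factor Stat4, the adaptor Myd88 and the kinase Irak4. The genes were listed by name for their place in the pathway and not by a measured value, though with earlier results of these data known. All 9 were in the table, and all 9 were among the 13309 genes tested, which are those at 1 or above in 3 or more libraries. RNA-seq was run on iNKT1 cells, the T-bet-expressing subset of invariant natural killer T cells, from thymus, liver and spleen, with 3 libraries per tissue and 9 in all. Every group came from C57BL/6 mice of the genotype Tbx21CreTg;Rosa26-LSL-YFP+/+ with no treatment, so the 3 groups differ by tissue alone in the labels, which give no age or sex. In such mice a Cre driven by Tbx21 switches on YFP for good, so the reporter marks any cell that has ever expressed the Cre; the cell sort is not given in the sources used here. The labels call the replicates independent without saying that each came from its own mouse, and p-values measure the spread between these libraries.

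IL-18 binds the chain encoded by Il18r1 and then recruits the chain encoded by Il18rap, and the joined intracellular domains bring in the adaptor MyD88 and the kinase IRAK4 on the way to NF-kB. IL-12 binds a receptor made of the Il12rb1 chain, which carries TYK2, and the Il12rb2 chain, which carries JAK2, and these kinases phosphorylate STAT4. In natural killer cells and iNKT1 cells the pair of cytokines is known for triggering interferon-gamma without a signal from the antigen receptor.

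In these libraries the IL-18 receptor chains were highest in thymus, lower in spleen and lowest in liver, with no overlap between any pair of tissues. Il18r1 was 6.15-fold lower and Il18rap 2.36-fold lower in liver than in thymus, both past the test's threshold. Of 24 alternative analyses, Il18r1 passed in 22 and Il18rap in only 8. Neither chain passed between spleen and thymus or between liver and spleen. Jak2 ran the other way and was 3.14-fold higher in spleen than in thymus. Il12rb2 was lowest in spleen, without passing the test, and Il12rb1, Tyk2, Stat4, Myd88 and Irak4 passed no test between tissues. All values are normalised read counts as deposited by the authors. Tests are limma-trend on log2(value + 1) with Benjamini-Hochberg adjustment over all genes tested and a threshold of 0.05.

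**Figure D1:**
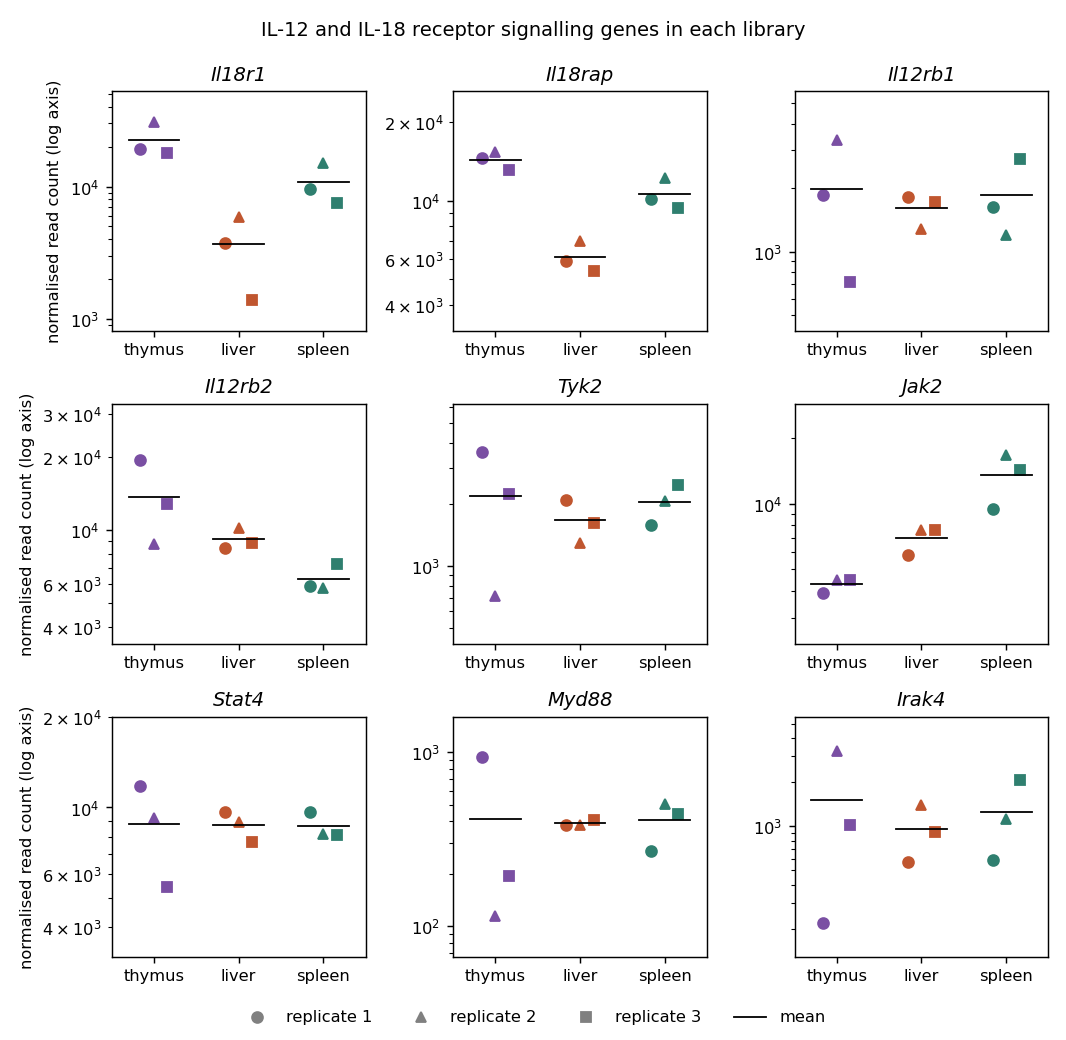
The 9 genes in each library, as normalised read counts on a log axis with its own range per gene; each point is a library, its shape is the replicate number and the bar is the mean of 3. Il18r1 and Il18rap fall from thymus to spleen to liver and Jak2 climbs from thymus to liver to spleen without overlap, while the widest spreads of Myd88, Tyk2 and Irak4 are among the thymus libraries.

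The depth of the libraries was read from the steps between their low values: 3869601 reads in liver replicate 3 and 18497179 to 39585489 in the other 8. Every member had at least 98 reads in those 8 libraries and at least 67 in liver replicate 3, where the steps were less regular. All 6 iNKT1 markers (Tbx21, Il2rb, Klrb1c, Ifng, Xcl1, Cxcr3) and all 6 T cell markers had reads in every library. Markers of other cells were present as well. The 5 iNKT2 markers, led by Gata3 in every library, summed to between 4072 and 8917. The 5 markers of NK cells and type 1 innate lymphoid cells summed to 1691 in liver replicate 1, with 708 reads of Ncr1 and 454 of Eomes. In spleen replicate 1 they summed to 1245, mostly from Tyrobp (1434 reads), with 1 read each of Ncr1 and Eomes. The sums were between 224 and 663 elsewhere. The 4 measured immature thymocyte markers summed to 635 in thymus replicate 3, which had 388 reads of Rag1. Elsewhere they summed to between 75.3 and 309, mostly from Cd1d1, with at most 1 read of Rag1 and no read of Dntt. The 4 measured B cell markers summed to 2122 in spleen replicate 1, 747 in liver replicate 1 and 213 in liver replicate 3, and none had a read in a thymus library. The 5 measured myeloid markers summed to 3040 in spleen replicate 1, 1298 in liver replicate 1 and at most 541 elsewhere, and 5 hepatocyte markers, led by Alb, to between 1306 and 1763 in liver, at most 270 in thymus and at most 24.4 in spleen. Xist was 84540 or higher in the 3 libraries numbered 2, with no more than 21 reads from Y-linked genes in any of them. The other 6 had 1454 or more such reads, and thymus replicate 3, which was placed with these 6, had Xist at 16530 as well. The median log2 fold change over all genes tested was 0.29 in liver and 0.33 in spleen against thymus. Other scalings of the values moved these medians by between 0.14 and 0.21. With edgeR and DESeq2 on the recovered reads, which differ in model as well as scaling, the medians moved by between -0.34 and -0.31.

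Il18r1 and Il18rap lie head to tail on the plus strand of chromosome 1 (GRCm38, GENCODE M21), Il18r1 from 40465552 to 40500854 and Il18rap from 40515362 to 40551705, with 14507 bases between them. Jak2 is on chromosome 19 from 29251828 to 29313080, and Il12rb2 on the minus strand of chromosome 6 from 67291318 to 67376188. The stretches just upstream of the start sites of these 4 genes are shown because they are the members whose groups separated, a pair of neighbours that moved together and a gene that moved the other way among them. They are RefSeq sequences of GRCm38.p6, given 5′ to 3′ on the strand of the gene and ending at the base before the start, and the Il18r1 stretch is cut to 136 bases because Il1rl1 ends right before it. Capitals mark the single match to any of the 6 motifs searched, a STAT motif.
Il18r1, chr1:40465416-40465551, plus strand: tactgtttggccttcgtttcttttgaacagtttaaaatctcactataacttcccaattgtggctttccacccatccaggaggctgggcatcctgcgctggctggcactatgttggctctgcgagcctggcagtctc
Il18rap, chr1:40515112-40515361, plus strand: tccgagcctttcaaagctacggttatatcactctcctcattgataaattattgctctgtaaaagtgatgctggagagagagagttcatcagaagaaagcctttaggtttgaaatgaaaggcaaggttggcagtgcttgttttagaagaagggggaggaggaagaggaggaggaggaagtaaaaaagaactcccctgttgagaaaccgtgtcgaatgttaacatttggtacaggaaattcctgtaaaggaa
Jak2, chr19:29251553-29251802, plus strand: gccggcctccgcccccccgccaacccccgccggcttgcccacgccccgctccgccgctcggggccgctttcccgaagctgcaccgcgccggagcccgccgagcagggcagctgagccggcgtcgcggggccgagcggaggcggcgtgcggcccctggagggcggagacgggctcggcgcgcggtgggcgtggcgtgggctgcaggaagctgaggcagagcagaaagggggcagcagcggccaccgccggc
Il12rb2, chr6:67376189-67376438, minus strand: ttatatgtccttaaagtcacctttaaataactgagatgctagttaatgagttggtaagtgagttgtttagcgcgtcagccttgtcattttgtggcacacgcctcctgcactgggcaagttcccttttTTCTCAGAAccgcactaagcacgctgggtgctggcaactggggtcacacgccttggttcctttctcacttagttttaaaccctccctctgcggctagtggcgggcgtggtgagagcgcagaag

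The Il18r1 and Il18rap stretches hold 3 and 4 CpG dinucleotides at 50.7% and 42% GC. The full 250 bases upstream of Il18r1, the length of the other windows, are 40.8% GC with 3 CpG dinucleotides. The Jak2 stretch is 80.8% GC with 37 CpG dinucleotides, and the Il12rb2 stretch is 50% GC with 10, against medians of 52.4% and 6 over the 32851 promoter windows of the table. The motifs, searched on both strands in the 250 bases upstream, were the T-box core GGTGTGA, the STAT motif TTCNNNGAA, the NF-kB motif, the AP-1 motif TGANTCA, the RUNX motif TGTGGT and the ETS motif CCGGAAG. They were found in 3.33%, 7.02%, 1.41%, 6.75%, 14% and 6.91% of all windows, respectively. The STAT match of Il12rb2, ttctcagaa, begins 123 bases before the start. RefSeq gave 11 start sites for 8 of the members; Il12rb1 had no entry. Among the windows not printed, that of Myd88 had a T-box and a STAT match and that of Irak4 an ETS match. The window of the third listed start of Il18r1 had 2 STAT matches. The Myd88 window and the third Il18r1 start lie inside the annotated genes. A match to letters is a description of the sequence and not a binding site.

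Il18r1 encodes the chain that binds IL-18. Its values were 19076, 30824 and 17916 in thymus replicates 1, 2 and 3, 3763, 5889 and 1382 in liver, and 9646, 15204 and 7580 in spleen. Every thymus library lay above every spleen library, and every spleen library above every liver library. The means were 22605 ± 7141 in thymus, 3678 ± 2255 in liver and 10810 ± 3943 in spleen (SD, n = 3 each). Liver was lower than thymus by a log2 fold change of -2.81 (standard error 0.43, 95% interval -3.73 to -1.89, limma-trend adjusted p = 0.0107). In this comparison 2 of the 9 members passed the threshold, Il18r1 and Il18rap, where 0.323% of all genes tested did. The difference of Il18r1 also passed with edgeR (adjusted p = 0.0387), which called 0.186% of its genes in this comparison, and DESeq2 (adjusted p = 1.09e-05), which called 3.81%, both on the recovered reads. Without liver replicate 1 it was -2.94 and missed the threshold (limma-trend adjusted p = 0.0703). That library and spleen replicate 1 carry the most B cell and myeloid marker RNA, and liver replicate 1 also the most Ncr1 and Eomes. Without both libraries the difference of Il18r1 was again -2.94 (limma-trend adjusted p = 0.170). Without liver replicate 3, the shallowest library, the difference was -2.22 (limma-trend adjusted p = 0.0347), and that between liver and spleen was -1.14. In bulk RNA, fewer cells that express a gene and less RNA of it per cell cannot be told apart.

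Between spleen and thymus, Il18r1 differed by -1.08 (95% interval -2.0 to -0.16), which did not pass (limma-trend adjusted p = 0.336). Between liver and spleen it was -1.73 (95% interval -2.65 to -0.81), again without passing (limma-trend adjusted p = 0.9999, unadjusted p = 0.00112). Only 0.015% of all genes tested passed in that last comparison, none of them a member. The replicate numbered 2, whose libraries had high Xist, gave the highest value of both Il18r1 and Il18rap in all 3 tissues; whether sex bears on either gene was not tested. With a term for the sex read from Xist and the Y-linked genes, the liver difference of Il18r1 stayed at -2.81 (limma-trend adjusted p = 0.000692), and among the 6 libraries with 1454 or more Y-linked reads, thymus replicate 3 included, it was -3.02 (limma-trend adjusted p = 0.0135).

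Il18rap encodes the accessory chain that completes the receptor. Its values were 14636, 15469 and 13095 in thymus, 5874, 7002 and 5397 in liver, and 10201, 12293 and 9369 in spleen. The 3 tissues again did not overlap, and the libraries of a tissue lay closer together than for Il18r1. The means were 14400 ± 1204, 6091 ± 824 and 10621 ± 1507, respectively (SD, n = 3 each). The liver difference from thymus was -1.25 (standard error 0.23, 95% interval -1.73 to -0.76, limma-trend adjusted p = 0.0270). This call was fragile: it passed with DESeq2 (adjusted p = 8.18e-05) but not with edgeR (adjusted p = 0.0515), and under 8 of 24 alternatives in all, with adjusted p-values from 8.18e-05 to 0.296. Leaving out any single library except thymus replicate 3 took it above 0.05, to between 0.0511 and 0.183. The differences of -0.45 between spleen and thymus and -0.80 between liver and spleen did not pass (limma-trend adjusted p = 0.467 and 0.9999).

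The ratio of the Il18r1 value to the Il18rap value within a library was 1.30, 1.99 and 1.37 in thymus, 0.641, 0.841 and 0.256 in liver, and 0.946, 1.24 and 0.809 in spleen. Per kilobase of exon it was 1.83, 2.79 and 1.92 in thymus, 0.898, 1.18 and 0.359 in liver, and 1.33, 1.73 and 1.13 in spleen. All thymus ratios lay above those of the other tissues, and the liver and spleen ratios overlapped. Scaling of a library does not touch this ratio. The liver intervals of the chains, -3.73 to -1.89 for Il18r1 and -1.73 to -0.76 for Il18rap, did not overlap, but the difference between the chains was not itself tested.

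**Figure D2:**
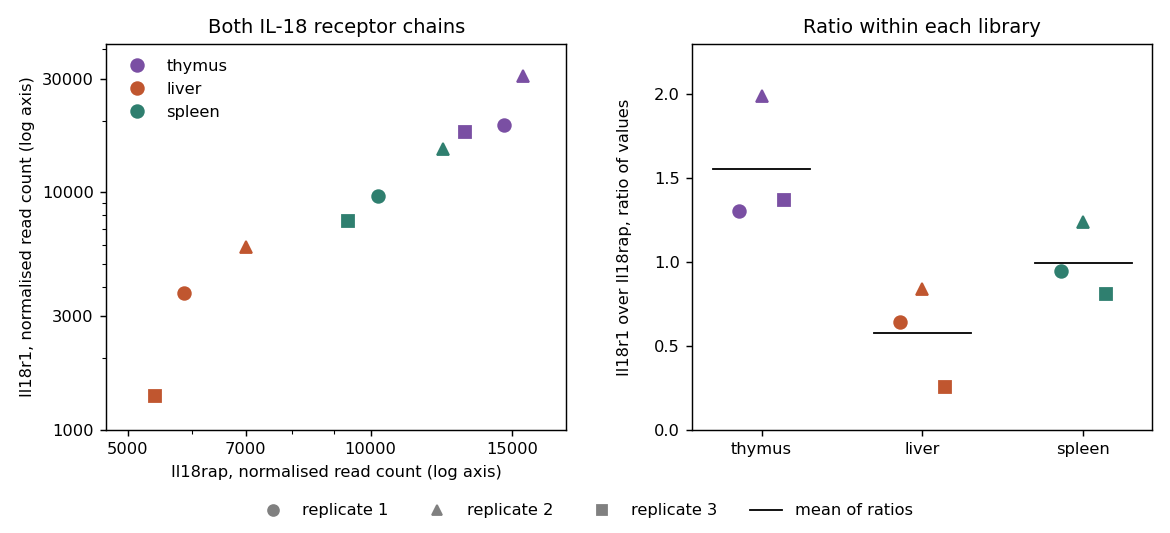
Left, Il18r1 against Il18rap in the 9 libraries, both as normalised read counts on log axes. Right, the ratio of the 2 values per library, not corrected for exon length, with bars at the mean of 3. Liver libraries lie at the low end of both chains and thymus libraries at the high end, and the ratio is 1.30 or more in thymus and 0.841 or less in liver.

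Il1rl1, Il1rl2 and Il1r1, which encode related receptor chains and lie upstream of Il18r1 on the same chromosome, and Mfsd9 downstream of Il18rap were the measured neighbours, 4 of 8 looked for. None passed in any comparison. Il1rl1, which ends at base 40465415 next to the start of Il18r1, ran from 0 to 79.8 over the libraries, far below the lowest Il18r1 value of 1382. Over the 9 libraries, the genes most like Il18r1 among the 9368 with a mean of at least 100 were Il7r (Pearson r of log2 values 0.968), Il18rap (0.963) and Oprm1 (0.953). Il7r also led for Il18rap (0.984), ahead of Il18r1 and E230001N04Rik (0.951). Il7r, the receptor chain for interleukin-7, had values of 39747, 50118 and 27831 in thymus, 4131, 4674 and 2109 in liver and 15547, 17003 and 8546 in spleen, the same order of tissues as both IL-18 receptor chains. These correlations describe points that share tissue, and no test was made of them.

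Il12rb1 encodes the chain that the IL-12 and IL-23 receptors share. Its values were 1836, 3339 and 720 in thymus, 1814, 1274 and 1720 in liver, and 1624, 1192 and 2732 in spleen. The thymus libraries alone spanned 4.64-fold, from the lowest to the highest of all 9, so no tissue stood apart. The differences were -0.05 in liver and 0.09 in spleen against thymus (95% intervals -1.22 to 1.12 and -1.08 to 1.26), and neither passed (limma-trend adjusted p = 0.980 and 0.971). Changes of up to about 1 log2 unit either way are inside these intervals.

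Il12rb2 encodes the signalling chain of the IL-12 receptor. Its values were 19403, 8731 and 12823 in thymus, 8467, 10218 and 8837 in liver, and 5907, 5795 and 7244 in spleen. Every spleen library lay below every library of the other tissues, while liver and thymus overlapped. The spleen difference from thymus was -1.04 (standard error 0.28, 95% interval -1.65 to -0.44) and did not pass (limma-trend adjusted p = 0.164, unadjusted p = 0.00215). It passed under 2 of 24 alternatives, DESeq2 (adjusted p = 0.0245) and the fit without thymus replicate 2 (limma-trend adjusted p = 0.0403). Liver differed by -0.50 from thymus and 0.54 from spleen, neither past the threshold (limma-trend adjusted p = 0.504 and 0.9999).

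Per kilobase of exon, the ratio of Il12rb2 to Il12rb1 was 11.4, 2.83 and 19.3 in thymus, 5.05, 8.68 and 5.56 in liver, and 3.93, 5.26 and 2.87 in spleen. The signalling chain exceeded the shared chain in every library, and the thymus ratios spanned those of the other tissues. Among the genes most like Il12rb2 over the libraries were Arhgdib (r = 0.940) and Rell1 (0.940), and those most like Il12rb1 were Timm50 (0.978), Polr3e (0.966) and Tex2 (0.952).

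Jak2 encodes the kinase bound to the Il12rb2 chain, and it also serves other cytokine receptors. Its values were 3893, 4466 and 4495 in thymus, 5850, 7570 and 7571 in liver, and 9420, 16739 and 14221 in spleen. The tissues did not overlap, with thymus lowest and spleen highest. The means were 4285 ± 339, 6997 ± 993 and 13460 ± 3718 (SD, n = 3 each). The spleen difference from thymus was 1.61 (standard error 0.27, 95% interval 1.03 to 2.20, limma-trend adjusted p = 0.0151). Jak2 was the only one of the 9 members past the threshold in this comparison, where 0.398% of all genes passed. It passed with edgeR (adjusted p = 0.0211), which called 0.29% of its genes here, and DESeq2 (adjusted p = 1.62e-05), which called 4.4%. It did not pass without spleen replicate 2 or spleen replicate 3 (log2 fold changes 1.44 and 1.55, limma-trend adjusted p = 0.127 and 0.114), in a fit of the 6 samples compared (0.0756) or in the same 6 libraries with Y-linked reads (0.265). Without spleen replicate 1, the library with the most B cell and myeloid marker RNA, the difference was 1.85 (limma-trend adjusted p = 0.0189). Liver exceeded thymus by 0.70 and fell short of spleen by a log2 fold change of -0.91, neither past the threshold (limma-trend adjusted p = 0.335 and 0.9999).

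Tyk2 encodes the kinase bound to the Il12rb1 chain. Its values were 3619, 710 and 2253 in thymus, 2101, 1299 and 1612 in liver, and 1582, 2080 and 2472 in spleen. Thymus replicates 1 and 2 were the highest and the lowest of all 9, so the tissues overlapped. Liver differed from thymus by -0.13 and spleen by 0.16 (95% intervals -1.28 to 1.02 and -0.99 to 1.31), and neither passed (limma-trend adjusted p = 0.946 and 0.938). Per kilobase of exon, Jak2 exceeded Tyk2 in every library, by 1.47 to 8.58 times in thymus, 3.80 to 7.95 times in liver and 7.85 to 10.98 times in spleen.

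Stat4 encodes the transcription factor that the IL-12 receptor activates. Its values were 11773, 9191 and 5409 in thymus, 9647, 8932 and 7662 in liver, and 9671, 8186 and 8120 in spleen. The liver and spleen libraries fell inside the range of the thymus libraries, and the means of 8791 ± 3201, 8747 ± 1006 and 8659 ± 877 lay within the spread of any tissue (SD, n = 3 each). The log2 fold changes were 0.06 in liver and 0.05 in spleen against thymus (95% intervals -0.55 to 0.66 and -0.56 to 0.65, limma-trend adjusted p = 0.958 and 0.971). Nabp1, a measured neighbour on chromosome 1, which encodes a single-strand DNA binding protein, rose from 845, 1233 and 2308 in thymus to between 4282 and 8975 in liver and 5704 and 9149 in spleen (log2 fold changes 2.37 and 2.40, limma-trend adjusted p = 0.0197 and 0.0158). Its liver call was lost without liver replicate 2 or 3 (adjusted p = 0.155 and 0.183), and its spleen call without any 1 of the spleen libraries (0.0644 to 0.114, limma-trend). Zbtb10 (r = 0.953), Wdr43 (0.949) and Mars2 (0.943) were most like Stat4 over the 9 libraries.

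Myd88 encodes the adaptor that joins the IL-18 receptor to IRAK4. Its values were 936, 113 and 194 in thymus, 383, 381 and 406 in liver, and 271, 506 and 440 in spleen. Liver libraries agreed within 1.07-fold, whereas thymus libraries spanned 8.25-fold and covered both other tissues. The log2 differences were 0.50 in liver and 0.51 in spleen against thymus, with 95% intervals of -1.42 to 2.42 and -1.41 to 2.43. Neither passed (limma-trend adjusted p = 0.862 and 0.861). The means themselves were slightly lower than in thymus, with ratios of 0.941 in liver and 0.978 in spleen.

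Irak4 encodes the kinase recruited by MyD88. Its values were 220, 3271 and 1015 in thymus, 572, 1403 and 909 in liver, and 587, 1124 and 2066 in spleen. Thymus replicates 1 and 2 were the lowest and highest of all 9, a span of 14.9-fold, and the other tissues lay between them. The log2 differences were 0.00 in liver and 0.30 in spleen against thymus, with 95% intervals of -1.76 to 1.75 and -1.46 to 2.05. Neither passed (limma-trend adjusted p = 0.9998 and 0.922). Both means were lower than in thymus, with ratios of 0.640 in liver and 0.838 in spleen. Thymus replicate 1 was thus the highest library for Myd88 and Tyk2 and the lowest for Irak4.

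**Figure D3:**
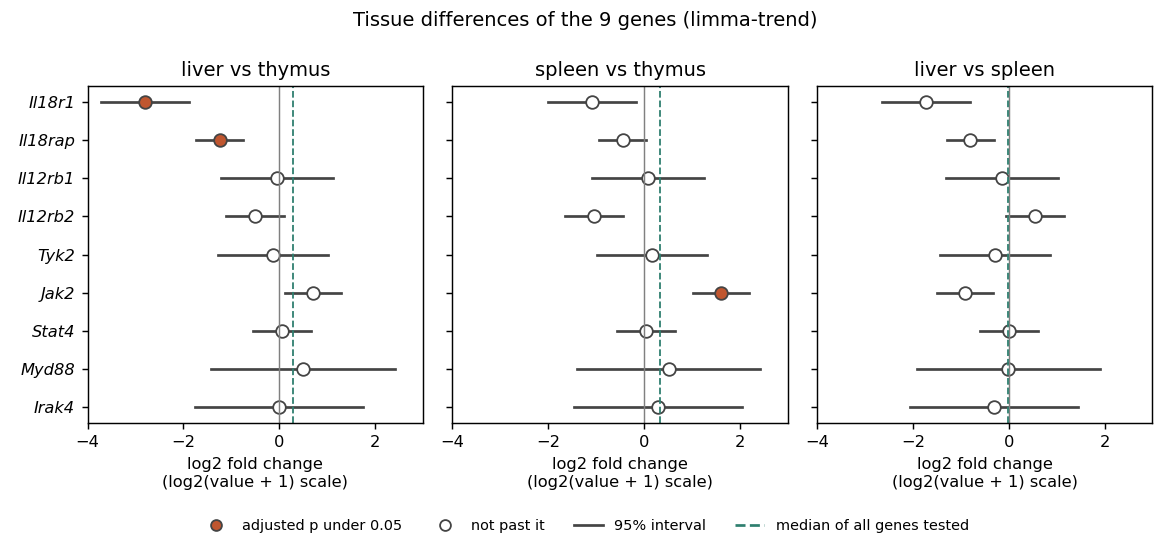
Log2 fold changes of the 9 genes in the 3 pairwise comparisons (limma-trend on log2(value + 1)), with 95% intervals; filled points have an adjusted p under 0.05 and the dashed line is the median of all genes tested. Filled points are Il18r1 and Il18rap in liver against thymus and Jak2 in spleen against thymus, and none is filled in liver against spleen.

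Counted together, the values of Il18r1, Il18rap and Jak2 did not overlap between liver and thymus, where 15.3% of all genes did not. Between spleen and thymus this held for those 3 and Il12rb2, also beside 15.3%, and between liver and spleen for the same 4, beside 12.7%. Il18r1, Il18rap and Jak2 were the members without overlap in all 3 comparisons, 3 of 9 beside 1.07% of all genes tested. In the F-test of any tissue difference 2 members passed, Il18r1 (limma-trend adjusted p = 0.0170) and Jak2 (adjusted p = 0.0355), beside 0.346% of all genes, and Il18rap did not (adjusted p = 0.0610). In liver against spleen none of the 9 passed with limma-trend, edgeR or DESeq2, which called 0.015%, 0.0149% and 0.198% of their genes. Il18r1, Il18rap and Jak2 had an unadjusted limma-trend p under 0.05, as 3.03% of all genes did. The comparisons with thymus share its libraries.

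Levels can be set against each other between genes only per kilobase of exon. In thymus Il18r1 stood first at 4693 ± 1483 normalised counts per kilobase, above 99.1% of the genes tested, followed by Il12rb2 at 3598 ± 1419, Stat4 at 2270 ± 827 and Il18rap at 2133 ± 178. In liver Il12rb2 (2418 ± 243) and Stat4 (2259 ± 260) led, Jak2 followed at 1391 ± 197, and Il18rap (902 ± 122) and Il18r1 (764 ± 468) came next. In spleen Jak2 (2676 ± 739), Il18r1 (2244 ± 819) and Stat4 (2236 ± 227) lay within the SD of Jak2, ahead of Il12rb2 (1665 ± 212) and Il18rap (1573 ± 223). Neighbours at the top of each order lay within their spread (SD, n = 3 each). The other 4 members kept the order Il12rb1, Tyk2, Irak4 and Myd88 in all 3 tissues, from 390 to 479 per kilobase for Il12rb1 down to 151 to 161 for Myd88. The highest mean thus belonged to an IL-18 receptor chain in thymus, an IL-12 receptor chain in liver and a kinase in spleen.

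On the IL-12 side, 14 of 19 other listed genes (cytokines, related receptors, STATs and inhibitors) were in the table and tested. Ptpn6, which encodes the phosphatase SHP-1, an inhibitor of cytokine receptor signalling, fell from 16256, 12080 and 10409 in thymus to 4229, 3444 and 3829 in liver and 3417, 1692 and 2319 in spleen. The groups did not overlap: liver differed from thymus by -1.73 and spleen by -2.42 on the log2 scale (adjusted p = 0.0292 and 0.00331, limma-trend). The liver call was lost without any 1 of the liver libraries, thymus replicate 1 or 2, or spleen replicate 3 (limma-trend adjusted p = 0.0506 to 0.188). The other 13 genes passed in no comparison, and the list's median log2 fold changes were -0.05 in liver and 0.31 in spleen, beside 0.29 and 0.33 over all genes.

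Socs3, a feedback inhibitor of STAT signalling, had 0, 0 and 4 reads in thymus, 226, 271 and 94 in liver and 294, 590 and 453 in spleen. The groups were far apart without passing (limma-trend adjusted p = 0.0630 and 0.0584). Cish, another such inhibitor, ran from 549 to 1286 in thymus and from 1363 to 3242 in liver (limma-trend adjusted p = 0.370). Socs1 ran from 5.63 to 202 in thymus and from 212 to 402 in spleen (adjusted p = 0.557). Il27ra, a receptor chain for interleukin-27, ran from 2873 to 3795 in liver and from 4554 to 6080 in spleen (adjusted p = 0.9999).

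**Figure D4:**
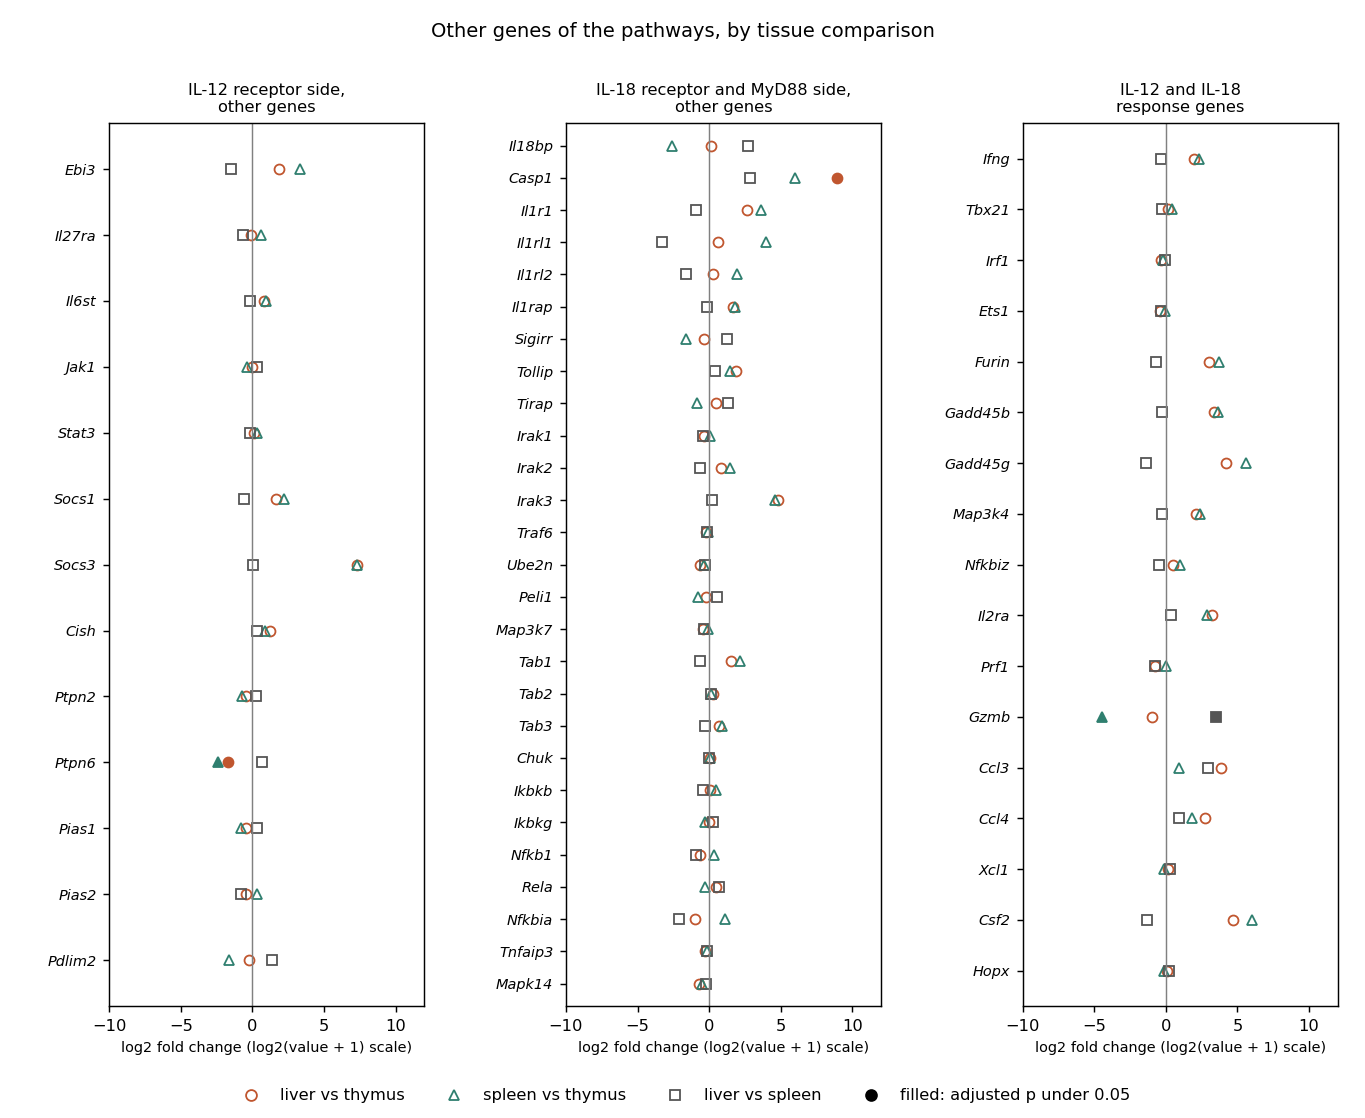
Log2 fold changes of other tested genes of the pathways in 3 lists, with 1 counted gene of the IL-12 side not drawn, on the log2(value + 1) scale, for liver against thymus (circles), spleen against thymus (triangles) and liver against spleen (squares); filled symbols have an adjusted p under 0.05. Filled symbols are Ptpn6 in both thymus comparisons, Casp1 in liver against thymus, and Gzmb in spleen against thymus and liver against spleen.

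On the IL-18 and MyD88 side, 28 of 29 other listed genes were in the table and 27 were tested. Casp1, which encodes the protease that activates IL-18, had no read in any thymus library, 786, 584 and 57 reads in liver and 303, 21 and 143 in spleen. Its liver mean was at least 144-fold higher than a floor of 3 reads in each thymus library (limma-trend adjusted p = 0.0335), a bound that covers counting error only. The adjusted p was above 0.05 in 12 of 24 alternatives, among them the removal of any single liver or spleen library, and was 0.234 without liver replicate 1 and spleen replicate 1 (limma-trend). Casp1 is also used by myeloid cells, whose markers ran from 25.6 to 1298 in the liver libraries and from 10.6 to 315 in thymus; their part in the result was not tested. Il18 itself had 107 reads in spleen replicate 1, 40 in liver replicate 1 and at most 1 in every other library, and so was not tested.

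Irak3, which encodes an inhibitory relative of IRAK4, had 0, 1 and 36 reads in thymus and 83, 97 and 60 in liver (limma-trend adjusted p = 0.337). Il18bp, which encodes a secreted protein that binds IL-18, ran from 249 to 274 in liver and from 4.42 to 120 in spleen (limma-trend adjusted p = 0.9999). None of the 26 tested genes besides Casp1, among them Irak1, Traf6 and Rela, passed in any comparison. The list's medians were 0.11 in liver and 0.14 in spleen, below the 0.29 and 0.33 of all genes.

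Of 19 genes known to respond to IL-12 and IL-18, 17 were tested. Gzmb, which encodes the cytotoxic protease granzyme B, was 15045, 17618 and 14109 in thymus, 7927, 5937 and 10279 in liver and 477, 487 and 1395 in spleen. Every spleen library lay below every other, by log2 fold changes of -4.50 from thymus (limma-trend adjusted p = 6.46e-05) and 3.51 for liver over spleen (adjusted p = 0.00297). The latter p was 0.0645 without liver replicate 1, 0.0507 without liver replicate 3, and 0.386 without liver replicate 1 and spleen replicate 1 at a log2 fold change of 3.24 (limma-trend). Ifng, the interferon-gamma gene, was 2696, 24.3 and 1082 in thymus, 1458, 1282 and 2271 in liver and 3029, 2265 and 1328 in spleen, and did not pass in any comparison. Its thymus libraries covered almost the whole range, as for Myd88 and Irak4.

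The list's median log2 fold changes were 1.95 in liver and 0.99 in spleen against thymus, but no gene of it was past the threshold on the higher side in either. The liver median was the value of Ifng, with an interval of -0.55 to 4.44. Its ratio of means was 1.32, and its thymus values were 2696, 24.3 and 1082. The spleen median was the value of Nfkbiz, with a ratio of means of 1.56. How far low thymus values raise these medians was not tested. Furin, a protease gene induced through STAT4, ran from 103 to 1596 in thymus and from 2679 to 5440 in spleen (limma-trend adjusted p = 0.0507), and from 1878 to 3203 in liver (adjusted p = 0.156). Csf2, a growth factor gene, had 0, 0 and 23 reads in thymus and 391, 305 and 219 in spleen (limma-trend adjusted p = 0.255). Gadd45g had 8, 0 and 31 reads in thymus and 1959, 135 and 548 in spleen (limma-trend adjusted p = 0.234). Ccl3 had 588 reads in liver replicate 1 and at most 11 in any other library. Prf1, the perforin gene, and Nfkbiz were lower in every liver library than in any spleen library, from 497 to 560 against 775 to 1032 and from 1262 to 1735 against 1891 to 2457, without passing (limma-trend adjusted p = 0.9999 each).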

How the data were processed

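RNA-seq of 9 libraries was used, 3 per tissue, grouped by the tissue label. Each gene has 1 value per library in the deposited table, a signal: normalised read counts that the authors had adjusted to a common scale by steps that are not stated. Trimmomatic 0.33, TopHat2 2.1.0, HTSeq 0.6.1, edgeR and mm10 are named in the submitters' processing notes, with no roles. The thymus replicate 2 column has an additional letter in its name that the labels do not explain. Low values lie on equal steps per library, and 93.2% of 15739 values of 1 to 20 reads came within 0.1 reads of a whole number (72.1% in liver replicate 3, 97.9% or more elsewhere), so reads were recovered by rounding. Reads in liver replicate 3 are therefore approximate, and to a lesser degree those in spleen replicate 3 (97.9%).

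Because the values are not counts, the planned fallback was used: limma-trend (limma 3.58.1, R 4.3.3) on log2(value + 1) over genes of at least 1 in at least 3 samples, all 9 samples in 1 fit, with no block, two-sided pairwise contrasts and an F-test. Fold changes on this scale understate the change of low genes; fold differences given as "-fold" are ratios of means. Symbols matched 13359 of 14004 identifiers. Alternatives were edgeR 4.0.16 (quasi-likelihood) and DESeq2 1.42.0 on recovered reads, other scalings, pseudocounts, filters, sample sets, terms and weights, and leaving out each library. The 9 members, the lists, the markers and the tests were chosen with earlier results of these data known. All 9 members are named whatever their values. Of each other list, the text names genes past the threshold and up to 2 more per comparison with the largest fold change among genes without overlap and with a mean of at least 100 in the higher tissue; Ifng, Irak1, Traf6, Rela and Il18 were named after their values were seen. Some genes that this rule or the lists name are not reported here. The procedure was tested on simulated data. Promoter windows came from RefSeq, and exon lengths from GENCODE M21.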

Additional observations from a re-analysis of the deposited data

How the results depend on the processing

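Il18r1 in liver against thymus kept its direction in all 24 alternatives and passed in 22, Jak2 in spleen against thymus passed in 20 and Il18rap in liver against thymus in 8. The number of members past the threshold in liver against thymus was 2, and it was 1 with edgeR, with equal library totals, with equal totals outside the mitochondrial genome, with equal medians, with array weights, with only the 6 samples compared and with only the libraries that have Y-linked reads. In spleen against thymus it was 1, and it was 2 with DESeq2 and 0 with only the 6 samples compared and with only the libraries that have Y-linked reads. For any tissue difference it was 2, and it was 3 with DESeq2 and with array weights, and 1 with edgeR, equal totals and only the libraries that have Y-linked reads. Leaving out 1 library gave between 0 and 2 in each of these, and leaving out liver replicate 1 and spleen replicate 1 together gave 0 in liver against thymus and 0 for any difference. In liver against spleen it was 0 throughout. That last removal and the equal medians were chosen after seeing the data. Fewer libraries also leave fewer residual degrees of freedom; the other causes were not tested.

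The replicate numbers are shared between tissues in the labels. The deviations of the 9 same-numbered pairs correlated between -0.0229 and 0.0957, and not every library correlated best with its own number. Between liver and spleen, same-numbered pairs gave 0.0629 to 0.0957 and the other pairs -0.0726 to -0.00474. Whether libraries of a number share mice cannot be told from these values. The number is not without meaning: all 3 libraries numbered 2 have high Xist and at most 21 Y-linked reads, and the other 6 have 1454 or more such reads. The libraries numbered 3 are not alike in this: Xist was 16530 in thymus replicate 3, 49.4 in liver replicate 3 and 49.7 in spleen replicate 3. With the replicate number as a block the members past the threshold were 2, 1 and 0 in the 3 comparisons and 2 for any difference, and Casp1 in liver against thymus was at 0.0503 (limma-trend adjusted p).

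Il12rb1, Tyk2, Stat4, Myd88 and Irak4, whose differences were small beside their spread, changed sign under some alternatives. Of these values 0 were past the threshold. In spleen against thymus their ratios of means were 0.941, 0.932, 0.985, 0.978 and 0.838. These lie below the thymus mean, while the log2 fold changes of the main fit were positive. The cause of the sign changes was not tested. In liver against thymus, Il12rb1 was 0.20 with array weights, 0.098 with equal totals, 0.12 with equal totals outside the mitochondrial genome, 0.17 with equal medians and 0.62 in the libraries with Y-linked reads. Irak4 was, in the same order, 0.22, 0.15, 0.17, 0.22 and 0.61, and 0.33 without liver replicate 1 and spleen replicate 1 together. Tyk2 was 0.016 with equal totals, 0.038 outside the mitochondrial genome and 0.085 with equal medians. With DESeq2 and edgeR, Myd88 was -0.13 and -0.098 and Stat4 -0.035 and -0.019, Myd88 was -0.11 in the libraries with Y-linked reads, and Stat4 was -0.016 without liver replicate 1 and spleen replicate 1 together. In spleen against thymus, the DESeq2 and edgeR values were -0.13 and -0.090 for Il12rb1, -0.28 and -0.26 for Irak4, -0.091 and -0.033 for Myd88, -0.065 and -0.023 for Stat4 and -0.15 and -0.10 for Tyk2. The libraries with Y-linked reads gave -0.31 for Myd88 and -0.53 for Tyk2, and Stat4 was -0.037 without liver replicate 1 and spleen replicate 1 together. In liver against spleen, Myd88 was 0.020 with equal medians and 0.19 in the libraries with Y-linked reads, and Stat4 was -0.0059 with equal totals and -0.044 in those libraries.

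Leaving out each library in turn gave, in liver against thymus, ranges of -0.64 to 0.46 for Il12rb1, -0.80 to 0.37 for Tyk2, -0.26 to 0.30 for Stat4, -0.13 to 1.39 for Myd88 and -1.02 to 0.93 for Irak4. In spleen against thymus they were -0.51 to 0.60, -0.51 to 0.67, -0.27 to 0.29, -0.12 to 1.39 and -0.72 to 1.23 in the same order of genes. In liver against spleen they were -0.41 to 0.19 for Il12rb1, -0.061 to 0.11 for Stat4, -0.27 to 0.18 for Myd88 and -0.76 to 0.15 for Irak4. Depth limits liver replicate 3 most, with the fewest reads.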
